A study of Schizosaccharomyces pombe with 21 samples.

Results

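Antisense RNAs are transcripts read from the DNA strand opposite a gene, and this account covers those named as such in the fission yeast annotation, together with the genes they lie across. Members were the noncoding RNA rows whose gene name ends in -antisense and a number and that had 10 or more counts in 3 or more of the 21 libraries; 610 of 634 such rows met this rule, out of 6988 genes in the table. The gene before "-antisense" in the name is called the opposite gene, so cta3-antisense-1 lies across cta3. In Schizosaccharomyces pombe many antisense RNAs are short-lived: the nuclear exosome with its helper complexes degrades them, RNA interference and chromatin factors limit their transcription, and termination factors limit the reading of one gene into its neighbour. Antisense RNAs of this yeast are best known from meiosis and stress, where they can accompany a lower or a higher level of the gene across from them.

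The cells were strain AGP72, genotype h-, the minus mating type. The 6 starved groups were set against a phosphate-replete group, with 3 biological replicates in each of the 7 groups. Cells starved for 2, 4 or 8 h in ePMGT(-PO4), a medium without phosphate, were sampled with 100 µg/ml cycloheximide, an inhibitor of translation, or without drug, and the replete cells (0 h) were log-phase cells in YES, a rich medium, without drug. Medium and phosphate therefore change together in every comparison with 0 h, and the cycloheximide groups against 0 h also hold the drug; the groups give no cells in YES with cycloheximide. PolyA+ RNA was sequenced as stranded paired-end libraries of 22079413 to 33563867 counted reads. RNA levels are relative to the rest of the polyA+ RNA in the same library, so a lower total per cell would not be seen. The M-factor gene mfm1, a marker of h- cells, had 8135 to 10603 counts at 8 h and 27 to 43 counts at 0 h. Of the other M-cell markers, mfm2 had 1210 to 1543 counts at 0 h, mfm3 19 to 43 and mam2 121 to 166. The P-cell markers map2 and map3 were not at 0 in any group. At 0 h they had 129 to 197 and 274 to 447 counts, more than mfm1. With cycloheximide at 2 h map2 had 1227 to 1736 counts and mfm1 3 to 10.

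Of the 610 antisense RNAs, 601 were paired with an opposite gene, 599 genes in all, since vps13a and SPCC330.04c have 2 antisense RNAs each; 9 antisense RNAs had no matched gene. In the RefSeq annotation, which is of a later genome build than the counts, 593 of the 601 pairs overlapped on opposite strands: 348 in part, 126 with the antisense RNA nested inside the gene and 119 with the antisense RNA covering the gene. The authors' tables describe 99 members as a possible alternative UTR (an untranslated end of a neighbouring messenger), and 70 members overlapped another annotated gene on their own strand. Antisense RNAs were mostly scarce. Their median level, in CPM (counts scaled by library size) averaged over the 21 libraries, was 6.41 (0.192 to 192.5), against 63.0 for the opposite genes. Over all libraries, the counts of an antisense RNA came to a median of 10.67% of those of its opposite gene; 55 pairs were below 1% and 75 pairs were above 100%. The most abundant was brl1-antisense-1, at a mean of 192.5 CPM, followed by SPCC663.10-antisense-1 at 175.5 CPM and ayr1-antisense-1 at 112.5 CPM. These levels do not allow for length, so a ratio between an RNA and its gene compares reads, not molecules.

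No source used here gives the strand setting of the authors' counting, so reads of a gene could in principle be counted on the RNA opposite it. Measured counts bear on this directly. The 126 nested members had a median of 2490 counts summed over the 21 libraries, against 3737 for all members. When cta3 held 390586 counts in the 3 libraries with cycloheximide at 2 h, its nested antisense RNA held 187, or 0.0479%, and cpc2-antisense-1 held 23 counts at 0 h beside 460629 of cpc2, or 0.00499%. Sense reads on the antisense RNA were therefore at most those shares in these pairs.

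As a class, antisense RNAs took a growing share of the counts as starvation went on, and their largest share came early under cycloheximide. Without drug they held 0.519 ± 0.013% of all counts at 0 h, 0.554 ± 0.0056% at 2 h, 0.719 ± 0.0060% at 4 h and 0.873 ± 0.043% at 8 h (means of 3 libraries ± SD). With cycloheximide the order was the reverse, 1.04 ± 0.043% at 2 h, 0.776 ± 0.032% at 4 h and 0.692 ± 0.0080% at 8 h. The libraries of the compared groups did not overlap: the drug libraries were above the drug-free ones at 2 h and 4 h and below them at 8 h. Each of these differences had p = 0.1 in an exact two-sided permutation test, the smallest p that 3 libraries against 3 can give. The median over pairs of the log2 ratio of antisense to opposite-gene CPM followed the same course. It was -2.99, -3.35 and -3.69 with cycloheximide at 2, 4 and 8 h, and -3.50, -3.47, -3.41 and -3.27 without drug at 0, 2, 4 and 8 h. A summed share weighs abundant RNAs most. At 4 h SPCC663.10-antisense-1 alone averaged 379.6 CPM with the drug and 4.81 CPM without. The median member was lower with the drug at 4 h (log2 fold change -0.35), although the summed share was higher.

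**Figure D1:**
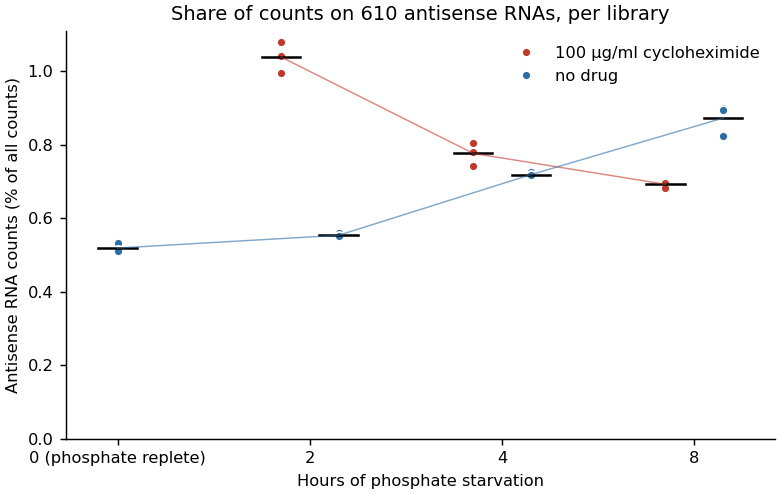
Percent of each library's counts that fell on the 610 antisense RNAs, against hours of phosphate starvation (times spaced evenly), with cycloheximide in red and without drug in blue; points are libraries and black bars are means of 3. In time order the blue means are 0.519, 0.554, 0.719 and 0.873%, and the red means 1.04, 0.776 and 0.692%.

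In starvation without drug, more antisense RNAs rose than fell. A gene was called when edgeR's quasi-likelihood test gave a Benjamini-Hochberg adjusted p below 0.05 over the 6392 tested genes and it changed 2-fold or more; all 610 members were tested. At 2 h against 0 h, 41 members were higher and 13 lower, 6.72% and 2.13% of them, where 3.94% and 1.81% of all tested genes were called; scaled by library size alone these were 50 and 8. At 4 h, 164 were higher and 59 lower, 26.9% and 9.67%, against 14.2% and 13.9% of all genes. At 8 h, 197 were higher and 87 lower, 32.3% and 14.3%, against 19.0% and 15.6% of all genes. Thus the share called higher stood above the background at each time, and the share called lower was at or under it from 4 h on. The median log2 fold change of the members was 0.08, 0.34 and 0.37 at 2, 4 and 8 h, that of the opposite genes was -0.01, 0.02 and 0.03, and that of all tested genes lay between -0.02 and 0.00. Other noncoding RNAs, 615 in number, had 30.9% higher and 13.5% lower at 8 h, against 32.3% and 14.3% of the antisense RNAs, and at 4 h 19.3% higher and 17.1% lower, against 26.9% and 9.67% of the antisense RNAs; these differences were not tested.

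**Figure D2:**
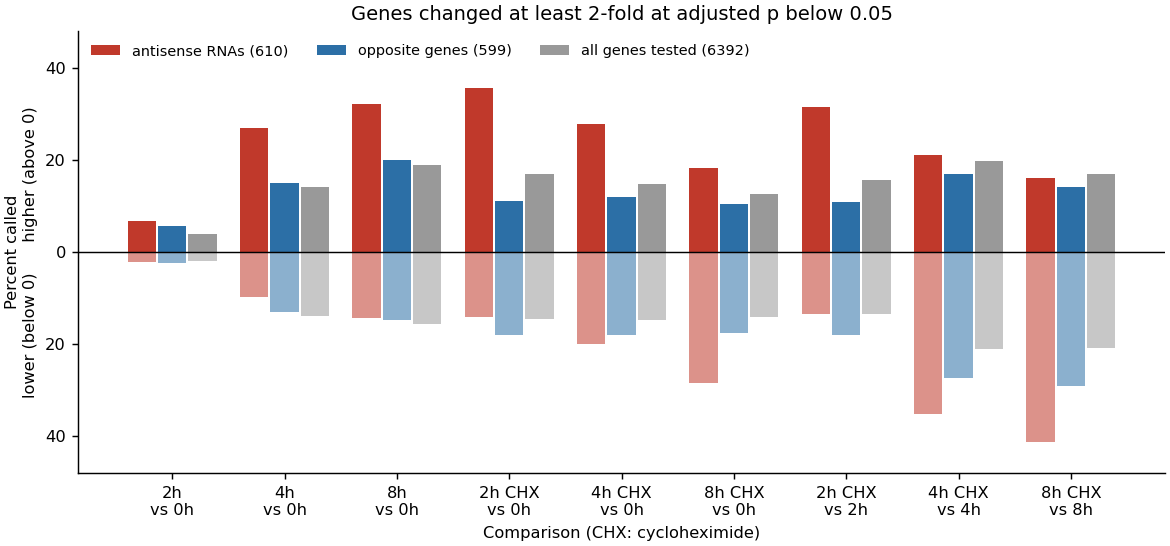
Percent of antisense RNAs (red), opposite genes (blue) and all tested genes (grey) called higher (above 0) or lower (below 0) in each of the 9 comparisons; CHX is cycloheximide, and a call needs a 2-fold change or more with an adjusted p below 0.05. Antisense RNAs called higher reach 35.6% in cycloheximide at 2 h against 0 h, and those called lower reach 41.1% in cycloheximide at 8 h against no drug at 8 h.

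The antisense RNAs across rpl1002, rpl1801 and cpc2 rose in starvation while these genes fell. rpl1002-antisense-1 had 31.5, 30.3 and 29.5 CPM at 8 h, against 1.49, 2.03 and 1.35 CPM at 0 h (log2 fold change 4.25 ± 0.14, SE). rpl1002, which encodes ribosomal protein L10 of the large subunit, had 24.0, 21.9 and 21.4 CPM at 8 h and 1046, 1124 and 1127 CPM at 0 h (-5.61 ± 0.08). By 8 h the antisense RNA held more counts than the messenger, 2598 against 1915 in the 3 libraries together without allowance for length, while at 0 h it held 115 against 79403. rpl1801-antisense-1, across the gene of ribosomal protein L18, had 31.0, 31.4 and 28.3 CPM at 8 h and 0.597, 0.677 and 0.820 CPM at 0 h (5.41 ± 0.14); rpl1801 itself had 111, 92.7 and 96.9 CPM at 8 h and 1859, 1984 and 1981 CPM at 0 h (-4.28 ± 0.07). cpc2 encodes the ribosome-associated scaffold RACK1. Its antisense RNA had 22.9, 25.1 and 25.4 CPM at 8 h, against 0.427, 0.145 and 0.356 CPM at 0 h (6.24 ± 0.18, edgeR adjusted p = 8.75e-19), and cpc2 had 687, 574 and 584 CPM at 8 h, against 6209, 6460.1 and 6468 CPM at 0 h (-3.38 ± 0.07). For these 3 genes all 8 h libraries lay below all 0 h libraries; the antisense RNAs were named by a rule that asks for libraries that do not overlap.

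Ribosomal protein genes lay opposite 9 members. At 8 h 6 of the 9 rose and 1 fell, where 19.0% of all tested genes were higher and 15.6% lower, and their median log2 fold change was 1.56. All 9 opposite genes were lower, with a median of -4.28. The member that fell was rpl2001-antisense-1, across the gene of ribosomal protein L20A, which fell with its gene: 0.211, 0.260 and 0.308 CPM at 8 h and 0.640, 0.532 and 0.891 CPM at 0 h (-1.43 ± 0.37). rpl20-antisense-1, whose opposite gene could not be matched by name, fell too, to 0.737, 0.715 and 0.500 CPM at 8 h, against 7.47, 6.48 and 6.20 CPM at 0 h (-3.34 ± 0.19). With cycloheximide against 0 h, 6, 7 and 5 of the 9 members opposite ribosomal protein genes were higher at 2, 4 and 8 h, and none was lower. Of their 9 opposite genes 2 were lower at 2 h and none at 4 h or 8 h. Of all tested genes, 17.0%, 14.8% and 12.6% were higher in these comparisons, and 14.5%, 14.8% and 14.1% lower. Ribosomal protein genes of this yeast often come as near-identical copies, and reads can be split between copies, so the values of single genes are uncertain to that extent.

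The highest antisense RNAs of starvation lay across genes of several other functions. SPBC1652.02-antisense-1, across a gene for an amino acid transporter, led at both 2 h and 4 h: it had 77.8, 77.9 and 75.6 CPM at 4 h, against 0.469, 1.402 and 0.713 CPM at 0 h (6.52 ± 0.23), and SPBC1652.02 differed by -0.87 ± 0.10 then, under the 2-fold limit, and fell to 38.0, 63.9 and 55.2 CPM at 8 h, against 138, 141 and 135 CPM at 0 h (-1.39 ± 0.10). ubp16-antisense-1, across the gene of a ubiquitin C-terminal hydrolase, came late. It averaged 1.18 CPM at 0 h, 1.58 at 2 h, 10.6 at 4 h and 95.4 at 8 h, where its libraries had 107, 90.2 and 88.8 CPM (6.35 ± 0.17). ubp16 was lower at 8 h (-1.74 ± 0.06). SPBP4G3.03-antisense-1 rose together with its opposite gene fub2, a PI31 proteasome regulator. The antisense RNA had 29.98, 41.2 and 37.2 CPM at 8 h and 1.24, 1.26 and 0.998 CPM at 0 h (4.97 ± 0.21), and fub2 had 12.8, 18.4 and 14.2 CPM at 8 h and 0.299, 0.532 and 0.428 CPM at 0 h (5.17 ± 0.25). SPAC1039.08-antisense-1, across a serine acetyltransferase gene, was the same-direction pair named by rule at 2 h, with log2 fold changes of 2.43 ± 0.09 for the antisense RNA and 1.73 ± 0.07 for the gene. Downstream of this antisense RNA on its own strand, SPAC1039.07c differed by 0.86 ± 0.05 at 2 h.

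Other antisense RNAs fell to low levels in starvation, and the genes across from them behaved in different ways. pfd1-antisense-1, across the gene of a prefoldin subunit (prefoldin hands unfolded proteins to the chaperonin), had 0.105, 0.227 and 0.269 CPM at 8 h, against 34.3, 29.0 and 29.1 CPM at 0 h (-7.24 ± 0.22, edgeR adjusted p = 2.12e-18); at 2 h its libraries had 16.3, 14.8 and 17.3 CPM, which was under the 2-fold limit (-0.93 ± 0.11). pfd1 itself had 54.4, 55.9 and 55.2 CPM at 8 h and 84.9, 76.2 and 75.4 CPM at 0 h (-0.51 ± 0.05), also under that limit. wtf11-antisense-1, nested in a member of the wtf family of spore-killer genes, had 1.16, 0.812 and 0.692 CPM at 8 h and 26.7, 26.2 and 28.4 CPM at 0 h (-4.92 ± 0.15), while wtf11 differed by 0.10 ± 0.06 on the log2 scale (0.31 by library size alone, 0.16 without replicate 3 of 0 h); wtf genes are close copies of each other. cao2, for a copper amine oxidase-like protein, was the pair called in opposite directions with the largest difference at 8 h. Its antisense RNA averaged 65.8, 43.2, 15.2 and 1.42 CPM at 0, 2, 4 and 8 h, and cao2 averaged 9.17, 19.2, 188 and 371 CPM at these times; at 8 h the log2 fold changes were -5.53 ± 0.12 and 5.35 ± 0.10. A smaller exchange of the same form was called already at 2 h for atg1801, an autophagy gene. atg1801-antisense-1, nested in it, had 2.44, 2.36 and 2.31 CPM at 2 h and 6.70, 6.48 and 5.56 CPM at 0 h (-1.39 ± 0.17), and atg1801 had 42.1, 40.2 and 38.9 CPM at 2 h and 20.3, 19.2 and 19.4 CPM at 0 h (1.04 ± 0.05).

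**Figure D3:**
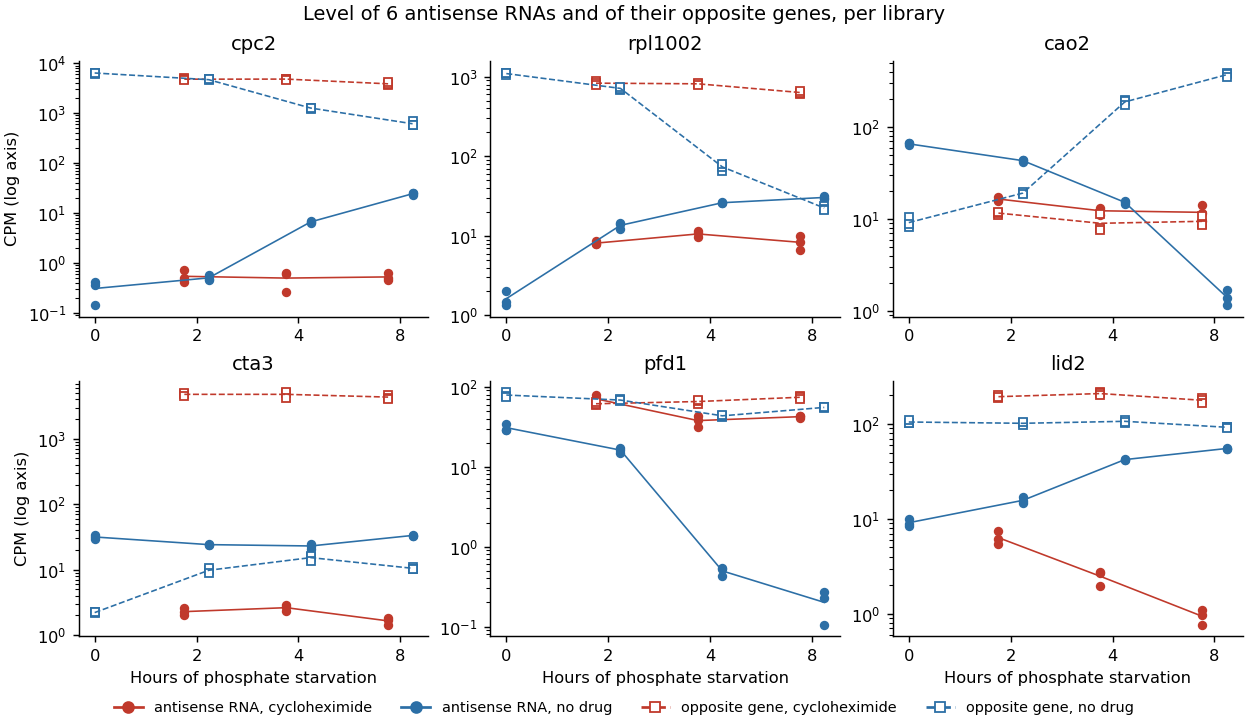
CPM on a log axis of 6 antisense RNAs (filled circles, solid lines) and of the genes opposite them (open squares, dashed lines) against hours of phosphate starvation (times spaced evenly), with cycloheximide in red and without drug in blue; each point is a library and lines join means of 3. Without drug the cpc2 and rpl1002 antisense RNAs climb as the genes fall and the cao2 pair crosses over, while with cycloheximide cta3 averages 4779.9 CPM at 2 h and its antisense RNA 2.28 CPM.

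Pairs were then counted by the calls on both of their members. At 8 h against 0 h, 170 pairs had a call on the antisense RNA alone, 67 pairs were called on both in opposite directions and 42 in the same direction, where 19.0% of all tested genes were called higher and 15.6% lower. The opposite-direction pairs were 43 with the antisense RNA higher and the gene lower, and 24 the other way round; 32 same-direction pairs were both higher and 10 both lower. At 4 h 45 pairs were called in opposite directions and 25 in the same direction, and at 2 h 6 and 5. At 2 h these numbers rest on single libraries: without replicate 1 of 0 h or replicate 1 of 2 h there were 3 pairs of each kind, and without replicate 3 of 0 h there were 3 in opposite directions. Spearman's rho between the log2 fold changes of the antisense RNA and of its gene, over the 601 pairs, was -0.14, -0.18 and -0.13 at 2, 4 and 8 h (Pearson's r -0.11, -0.19 and -0.17). These correlations run over pairs within the same libraries and describe a weak relation. Among 41 members opposite genes named for meiosis, 10 antisense RNAs were higher and 6 lower at 8 h, and 19 genes were higher and 5 lower. The antisense shares, 24.4% and 14.6%, lie near the 19.0% and 15.6% of all tested genes.

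**Figure D4:**
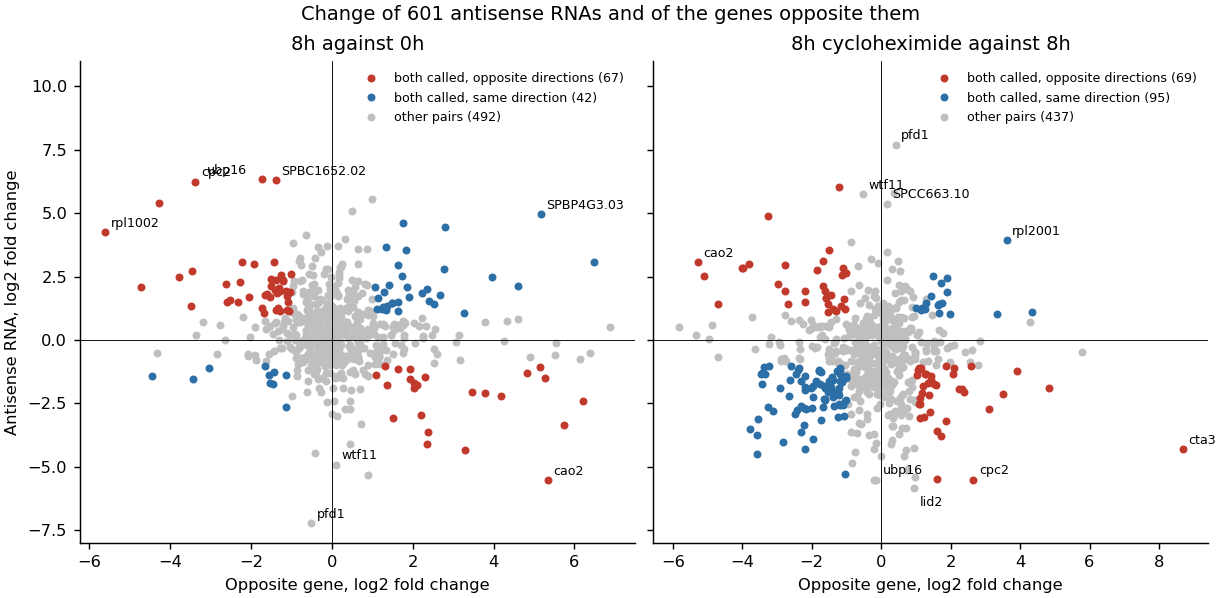
Log2 fold change of each of 601 antisense RNAs (vertical axis) against that of its opposite gene (horizontal axis) at 8 h against 0 h without drug (left) and with cycloheximide against no drug at 8 h (right); red points are pairs called in opposite directions, blue points pairs called in the same direction, and grey points all others. The left panel has 67 red and 42 blue pairs, the right panel 69 red and 95 blue.

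Relative to starved cells without the drug, cycloheximide went with more antisense RNAs higher at 2 h and with more lower at 4 h and 8 h. At 2 h with cycloheximide against 2 h without, 192 members were higher and 81 lower, 31.5% and 13.3%, where 15.8% and 13.5% of all tested genes were called. At 4 h the numbers were 129 and 214, 21.1% and 35.1%, against 19.9% and 20.9% of all genes, and at 8 h 98 and 251, 16.1% and 41.1%, against 17.1% and 20.8%. The median log2 fold change of the members was 0.28, -0.35 and -0.72 at 2, 4 and 8 h, with -0.21, -0.29 and -0.21 for the opposite genes and -0.04, -0.04 and -0.03 for all genes. The change of the drug effect between 2 h and 8 h was tested as an interaction, the effect at 8 h minus that at 2 h. It was called lower for 301 members and higher for 52, 49.3% and 8.52%, against 19.4% and 12.6% of all genes, with a median of -0.99. Of the 192 members higher at 2 h, 70 were also higher at 8 h, 36.5% of that list and 71.4% of the 98 higher at 8 h. Another 35 of the 192 were lower at 8 h, 18.2% of that list and 13.9% of the 251 lower at 8 h. A lower interaction follows from this choice of members, and all 35 had it called. Of the 81 lower at 2 h, 63 were lower at 8 h as well, 77.8% of that list and 25.1% of the 251. Among other noncoding RNAs, 28.6% were lower and 18.2% higher with the drug at 8 h.

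**Figure D5:**
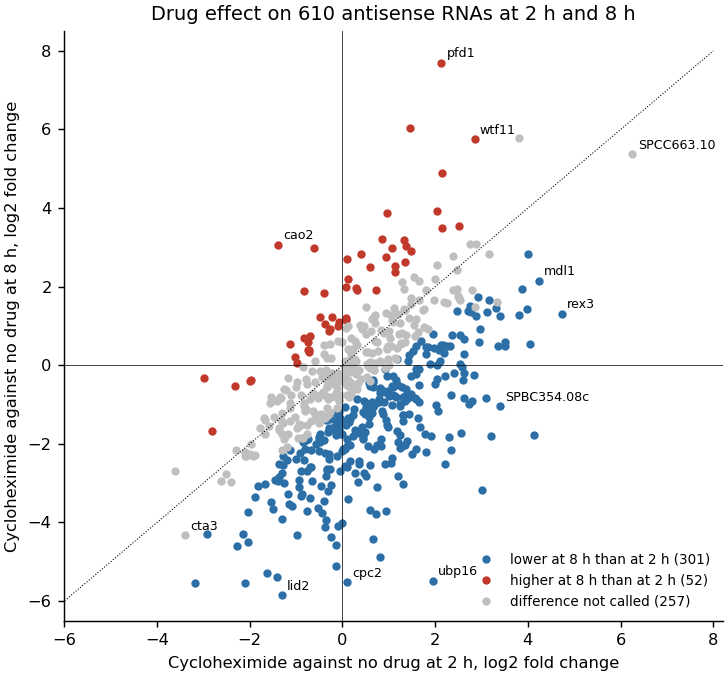
Log2 fold change of each of 610 antisense RNAs with cycloheximide against no drug at 2 h (horizontal axis) and at 8 h (vertical axis); the dotted line marks equal effects, and colours give the call of the difference between them. The 301 blue points lie below the line, the 52 red points above it, and 257 differences were not called.

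A few antisense RNAs reached high levels under cycloheximide. SPCC663.10-antisense-1, across trm44 (a tRNA methyltransferase gene), had 646, 629 and 611 CPM with cycloheximide at 2 h, against 7.64, 8.60 and 8.51 CPM without drug (6.25 ± 0.06, edgeR adjusted p = 6.70e-27). It stayed up at 4 h and 8 h, with mean levels of 379.6 and 194 CPM with the drug and 4.81 and 4.69 CPM without it. trm44 had 83.4, 76.3 and 71.1 CPM with the drug and 179.9, 193 and 198 CPM without at 2 h (-1.30 ± 0.06), and at 8 h it differed by 0.16 ± 0.05. mdl1-antisense-1, which covers the gene of a mitochondrial peptide-transporting ATPase, had 63.3, 63.7 and 69.3 CPM with cycloheximide and 3.84, 3.76 and 2.81 CPM without at 2 h (4.24 ± 0.11). rex3-antisense-1, nested in an exonuclease gene, had 86.6, 93.6 and 105 CPM with cycloheximide and 3.84, 3.10 and 3.79 CPM without at 2 h (4.73 ± 0.10), and by 8 h the difference was down to 1.31 ± 0.12. These last ones, described by the authors as possible alternative UTRs, overlap or adjoin genes on their own strand. Beside mdl1-antisense-1 these are clc1, upstream, which fell by 1.05 with the drug at 2 h, and cdc37, for an Hsp90 co-chaperone, downstream, which differed by -0.53. Beside rex3-antisense-1 it is qcr8, of the respiratory chain, which differed by -0.81. SPAC1F8.04c-antisense-1, across a predicted hydrolase gene, had 312, 305 and 307 CPM with cycloheximide and 30.3, 36.1 and 37.6 CPM without at 2 h (3.15 ± 0.07). Here the gene rose without drug instead, to 295 CPM at 8 h, against 2.47 CPM at 0 h (6.87 ± 0.15), and was lower with cycloheximide at 8 h (-4.01 ± 0.11).

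Other antisense RNAs rose with the drug at 2 h, and their difference from drug-free cells was smaller or of the other sign at 8 h. SPBC354.08c-antisense-1, across the calcium transporter gene rsn1, had 96.9, 107 and 89.7 CPM with cycloheximide and 8.47, 9.02 and 10.4 CPM without at 2 h (3.39 ± 0.08), and 2.37, 2.43 and 2.70 CPM with and 5.44, 5.10 and 4.92 CPM without at 8 h (-1.04 ± 0.13). The sign of its drug effect thus changed, and the interaction was -4.44 ± 0.15, while rsn1 was higher with the drug at both times (1.49 ± 0.07 and 1.87 ± 0.08). rem1-antisense-1, named for a meiotic cyclin gene, had 6.26, 7.65 and 7.497 CPM with cycloheximide and 0.682, 0.194 and 0.397 CPM without at 2 h (4.04 ± 0.23). SPCC18B5.02c, a pseudogene, and its antisense RNA rose together at 2 h, by 2.18 ± 0.09 and 2.32 ± 0.06.

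The pair called in opposite directions with the largest difference under cycloheximide, in each of the 6 comparisons with the drug, was cta3. cta3 encodes a P-type ATPase that exports potassium. It had 4815, 4962 and 4562 CPM with cycloheximide at 2 h, against 9.83, 10.6 and 8.87 CPM without drug (8.93 ± 0.10), and 4339 CPM with and 10.5 CPM without at 8 h. cta3-antisense-1, nested in it, had 2.27, 2.55 and 2.02 CPM with cycloheximide and 23.4, 24.8 and 24.1 CPM without at 2 h (-3.39 ± 0.10, edgeR adjusted p = 1.66e-18), and 1.44, 1.82 and 1.68 with and 34.2, 32.9 and 32.9 without at 8 h (-4.32 ± 0.10). In drug-free cells the antisense RNA thus held more counts than the gene at every time, 2286 against 159 at 0 h. pep3, a subunit of the vacuolar HOPS and CORVET tethers, showed the same arrangement on a smaller scale: pep3-antisense-1 had 1.53, 1.76 and 1.03 CPM with cycloheximide and 11.2, 9.99 and 12.3 CPM without at 2 h (-2.93 ± 0.15), and pep3 was higher (1.84 ± 0.03).

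Several pairs fell together under the drug. SPBPB10D8.02c, an arylsulfatase gene, had 0.238, 0.286 and 0.218 CPM with cycloheximide at 4 h, against 7.91, 11.7 and 10.9 CPM without (-5.32 ± 0.29), and its antisense RNA had 0.357, 0.286 and 0.437 CPM with and 6.15, 6.64 and 5.69 CPM without (-4.10 ± 0.29). The neighbour just upstream on the antisense RNA's own strand, the cysteine transporter gene SPBPB10D8.01, was lower by a similar amount (-4.50). mug124, named for meiotic upregulation, and mug124-antisense-1 were lower at 2 h (-2.70 ± 0.08 and -2.51 ± 0.16), as were saw1, a recombination gene, and SPBC409.16c-antisense-1 (-1.44 ± 0.09 and -3.60 ± 0.18). Downstream of mug124-antisense-1 on its own strand, fba1 was lower as well (-1.54). Upstream of SPBC409.16c-antisense-1 on its own strand, tsr2 differed by 0.45. SPBC106.12c-antisense-1, across the THO complex gene tho4, had 1.48, 1.17 and 1.24 CPM with cycloheximide at 8 h, against 63.8, 56.8 and 58.2 CPM without (-5.53 ± 0.12), and tho4 differed by -0.16 ± 0.07. Counted over all pairs, the drug comparisons at 2, 4 and 8 h had 43, 94 and 95 pairs called in the same direction and 34, 71 and 69 in opposite directions. Of the 95 at 8 h, 77 were both lower. In that comparison 41.1% of antisense RNAs and 29.0% of opposite genes were lower, against 20.8% of all genes, with 17.1% of all genes higher. Whether pairs fell together more often than these separate shares give was not tested. Spearman's rho over the 601 pairs was 0.08, 0.07 and 0.01 (Pearson's r 0.04, 0.05 and -0.05).

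Several antisense RNAs that changed in drug-free starvation had other levels in cells that starved with the drug. pfd1-antisense-1 had 40.2, 43.0 and 43.6 CPM with cycloheximide at 8 h, against 0.105, 0.227 and 0.269 CPM without (7.70 ± 0.21), and wtf11-antisense-1 had 47.3, 48.7 and 49.3 CPM with and 1.16, 0.812 and 0.692 CPM without (5.76 ± 0.14). cpc2-antisense-1 had 0.465, 0.498 and 0.621 CPM with cycloheximide at 8 h and 22.9, 25.1 and 25.4 CPM without (-5.52 ± 0.16), and cpc2 had 3717, 3769 and 4134 CPM with and 687, 574 and 584 CPM without (2.66 ± 0.07). The level of ubp16-antisense-1 averaged 2.09 ± 0.457 CPM with the drug and 95.4 ± 10.2 CPM without at 8 h (SD, n = 3 each), and its interaction of -7.43 ± 0.25 was the lowest of any member. Against drug-free cells at 8 h, cao2 and cao2-antisense-1 differed by -5.28 ± 0.09 and 3.06 ± 0.14 with the drug. cao2 averaged 9.47 CPM with cycloheximide at 8 h, near its 9.17 CPM at 0 h. Its antisense RNA averaged 11.9 CPM with the drug then, still below the 65.8 CPM at 0 h. lid2-antisense-1, nested in a histone H3K4 demethylase gene, and rad50-antisense-1, nested in a DNA repair gene, were among the most lowered. lid2-antisense-1 had 0.972, 1.08 and 0.767 CPM with cycloheximide at 8 h, against 54.4, 54.9 and 56.3 CPM without (-5.85 ± 0.13) and 10.1, 8.46 and 8.80 CPM at 0 h, so it ended below the replete level (-3.26 ± 0.15). rad50-antisense-1 had 0.676, 1.20 and 1.10 CPM with the drug and 41.8, 44.7 and 42.2 CPM without (-5.39 ± 0.15). lid2 and rad50 differed by 0.94 ± 0.04 and 0.99 ± 0.05, under the 2-fold limit. Upstream of lid2-antisense-1 on its own strand, SPBP19A11.07c was lower as well (-1.29 ± 0.06). Upstream of rad50-antisense-1 on its own strand, emc5 differed by 0.46 ± 0.12. The 9 ribosomal protein genes opposite members were all higher with the drug at 8 h, and of their antisense RNAs 4 were lower and 2 higher. Of all members 41.1% were lower and 16.1% higher in this comparison, and of all genes 20.8% and 17.1%. The antisense RNA rpl2001-antisense-1 rose with its gene (3.93 ± 0.26 and 3.62 ± 0.08).

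Set against replete cells, starvation with cycloheximide shifted from more members higher to more members lower. At 2 h with the drug 217 were higher and 86 lower than at 0 h, 35.6% and 14.1%, where 17.0% and 14.5% of all genes were called. At 4 h 170 were higher and 122 lower, 27.9% and 20%, against 14.8% and 14.8%; at 8 h 111 were higher and 173 lower, 18.2% and 28.4%, against 12.6% and 14.1%. Scaled by library size alone, 136 were higher and 136 lower at 8 h, an even split where TMM scaling gives more lower members. These comparisons share the 0 h libraries with those of starvation alone. Pairs called in opposite directions numbered 39, 42 and 41, and pairs called in the same direction 44, 51 and 46. Of the opposite genes, 11.2%, 11.9% and 10.5% were higher at 2, 4 and 8 h, and 17.9%, 18.0% and 17.5% lower. Whether pairs were called together more often than the separate shares give was not tested. The lowest members at 8 h included pep3-antisense-1, at 0.296, 0.293 and 0.329 CPM with the drug and 21.5, 20.7 and 24.5 CPM at 0 h (-6.17 ± 0.19), and atg1801-antisense-1 (-5.20 ± 0.27).

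Phosphate and RNA polymerase III genes had few antisense RNAs among the members. asp1 encodes the kinase and pyrophosphatase that makes and removes the inositol pyrophosphate InsP8, a phosphate signal. asp1-antisense-1 had 5.23, 5.21 and 5.75 CPM with cycloheximide at 2 h, against 1.51, 1.32 and 1.12 CPM without (2.03 ± 0.17), and stayed higher at 8 h (2.56 ± 0.23). asp1 had 98.5, 100.1 and 98.7 CPM with the drug and 234, 209 and 213 CPM without at 8 h (-1.14 ± 0.05), after rising in drug-free starvation (1.75 ± 0.05 at 8 h against 0 h). aps1 encodes a hydrolase of diadenosine and diphosphoinositol polyphosphates; its antisense RNA was higher at 4 h than at 0 h (1.91 ± 0.15) at a level of 4.71 CPM against 1.25 CPM, and aps1 differed by -0.02 ± 0.04. The antisense RNAs across rpc37, an RNA polymerase III subunit gene, and sfc3, a TFIIIC subunit gene, both fell at 8 h against 0 h (-2.23 ± 0.20 and -1.33 ± 0.10), and the genes differed by -0.98 ± 0.04 and 0.82 ± 0.04. The antisense RNA across rpc37, SPCC330.13-antisense-1, has neighbours on its own strand. Upstream, the ribosomal protein gene rpl2402 was lower at 8 h (-3.72 ± 0.07), and downstream sdh3 differed by 0.59 ± 0.03. A link between these changes was not tested.

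Genes that themselves control noncoding RNA lay opposite 11 members. At 4 h against 0 h 6 of the 11 antisense RNAs were higher and none lower, where 14.2% and 13.9% of all genes were. At 8 h 2 were higher and 2 lower, near the background of 19.0% and 15.6%. Of the genes, 1 was lower at 4 h and 2 at 8 h. The interaction with the drug was lower for 8 of the 11 antisense RNAs, against 19.4% of all genes and 49.3% of all members. cid14 encodes the poly(A) polymerase of the TRAMP complex, which feeds RNA to the exosome. It had 55.7, 54.9 and 54.2 CPM at 8 h and 159.9, 166 and 159 CPM at 0 h (-1.56 ± 0.03), and cid14-antisense-1 fell as well, averaging 0.202 CPM at 8 h against 0.536 CPM at 0 h (-1.38 ± 0.38). arb1, for an Argonaute-binding protein of RNA interference, and arb1-antisense-1 fell together with the drug at 8 h (-3.54 ± 0.06 and -3.10 ± 0.09). clr3-antisense-1, covering a histone deacetylase gene, rose at 8 h against 0 h (1.39 ± 0.18), and clr3 differed by -0.13 ± 0.04. cph1-antisense-1, nested in the gene of a Clr6 deacetylase partner, had 1.62, 1.97 and 1.31 CPM with cycloheximide at 4 h, against 28.8, 36.2 and 33.8 CPM without (-4.31 ± 0.14).

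Messengers of factors known to control antisense RNA were mostly not called. Of 85 tested genes of the exosome, nuclear surveillance, RNA interference, decay, chromatin and termination, none was called at 2 h against 0 h. Of all tested genes 3.94% were higher and 1.81% lower then. At 4 h none of the 85 was higher and 5 were lower, where 14.2% and 13.9% of all genes were. At 8 h 2 were higher and 14 lower, where 19.0% and 15.6% of all genes were. The exosome and TRAMP list held 7 of those 14 among its 15 genes. With cycloheximide, 4 of the 85 were higher and 7 lower at 2 h, 13 higher and 6 lower at 4 h, and 16 higher and 4 lower at 8 h. All tested genes had 15.8% higher and 13.5% lower at 2 h, 19.9% and 20.9% at 4 h, and 17.1% and 20.8% at 8 h. Exosome genes higher at 8 h with the drug numbered 5, and arb1 and arb2 of RNA interference were lower at all times. Whether these messenger changes bear on the antisense RNAs was not tested.

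Members differed in how they lie on their genes. Of the members nested in their gene, 38.1% were higher and 18.3% lower at 8 h against 0 h, of those overlapping in part 29.3% and 13.5%, and of those covering the gene 33.6% and 13.4%, where 19.0% and 15.6% of all genes were. With cycloheximide against no drug at 8 h, 50% of the nested, 39.9% of the partly overlapping and 33.6% of the covering members were lower, against 20.8% of all genes. The differences between these classes were not tested. Among members described as a possible alternative UTR, 42.4% were higher and 8.08% lower with cycloheximide at 2 h, against 29.4% and 14.3% of the other 511 and 15.8% and 13.5% of all genes. Of the 70 members that overlap another gene on their own strand, 47.1% were higher with the drug at 2 h; counts there could be shared with that gene. Protein-coding neighbours within 500 bases in RefSeq were compared as well, a comparison chosen after the values were seen. For 196 members with a gene that starts upstream and reads away from them, Spearman's rho between the log2 fold changes of RNA and neighbour was 0.32 at 4 h and 0.31 at 8 h against 0 h (Pearson's r 0.32 at both), and 0.23, 0.39 and 0.31 with cycloheximide at 2, 4 and 8 h. Of 98 such members called at 8 h, 26 had the neighbour called in the same direction and 9 in the opposite one. For 153 members with a gene upstream on their own strand, rho was 0.14 at 4 h and 8 h, and -0.091, -0.003 and 0.025 with cycloheximide at 2, 4 and 8 h. For 111 members with a gene downstream on their own strand it was -0.152 at 4 h and -0.211 at 8 h, and of 47 such members called at 8 h, 5 had the neighbour called in the same direction and 11 in the opposite one. With cycloheximide it was 0.052, 0.024 and -0.155 at 2, 4 and 8 h there. These values are descriptions over RNAs that share libraries.

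The authors' deposited table of log2 fold changes against 0 h gave values close to those here for the members. The median absolute difference between the authors' deposited table and the edgeR values was 0.0248 at 8 h without drug and 0.0628 at 2 h with cycloheximide, and the largest was 0.586 at 8 h without drug. In each of the 6 comparisons with 0 h, 596 to 608 of the 610 members had the same sign in the authors' deposited table.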

How the data were processed

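PolyA+ RNA of 21 libraries, 3 in each of 7 groups, was prepared by hot acid phenol extraction and a TruSeq stranded mRNA kit, per the labels' protocols. Read counts of every gene, with its name and product, were deposited by the authors, and tables of DESeq2 log2 fold changes of each starved group against 0 h. The submitters' processing notes name HISAT2 2.1.0, SAMtools, HTSeq 0.10.0, DESeq and DESeq2 with build ASM294v2; no source used here gives their settings. Total counts per library ran from 22079413 to 33563867.

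The deposited counts were scaled by TMM and fitted with edgeR 4.0.16 in R 4.3.3 (filterByExpr, which kept 6392 of 6988 genes; quasi-likelihood test, no covariates, one model of all 7 groups). A call needed a Benjamini-Hochberg adjusted p below 0.05 over all tested genes and a change of at least 2-fold. CPM are counts divided by TMM-adjusted library size, and errors of log2 fold changes are standard errors derived from the F statistic. The ratio of an antisense RNA to its gene used CPM + 0.1.

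Opposite genes were matched by gene name (379 members), by systematic ID (212) or by an older name in RefSeq (12, of which 2 did not overlap the gene and were not used as pairs); 7 members were not matched. RefSeq ASM294v3 was used for names, overlaps and neighbours; no coordinates or sequences are given, since its build is later than that of the counts. Neighbours were protein-coding genes within 500 bases.

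In each comparison the text names, among called antisense RNAs that averaged 50 or more scaled counts in whichever group was higher and whose libraries did not overlap, some of the 3 highest and the 3 lowest with their opposite genes, the pair called in opposite directions with the largest difference, and the pair called in the same direction with the largest smaller change. It also names antisense RNAs across genes in the phosphate, RNA polymerase III and antisense control lists, and pfd1-antisense-1. Members, lists and tests were chosen with earlier results of these data known. Replicate pairs within a group differed by 3.62 to 23.2 times the chi-square expected per gene from counting alone, more than a second sequencing of the same library would give. This check cannot tell separate cultures from separate preparations of the same culture. At 8 h without drug, replicate 1 differed from replicates 2 and 3 by 23.2 and 19.4 times, and those differed from each other by 3.62 times. Alternatives were RLE scaling, library size alone, other filters, DESeq2 1.42.0 on the counts, a fit of the compared groups only, a replicate block, each library left out, calls at any fold, and, chosen after seeing the data, only pairs that overlap on opposite strands.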

Additional observations from a re-analysis of the deposited data

Results flagged for a closer look

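The effect of cycloheximide, with the drug against without it, differed between 8 h and 2 h of starvation for 45 of the antisense RNAs and opposite genes covered by the naming rule. The difference was tested as an interaction in the edgeR quasi-likelihood fit (adjusted p below 0.05 over all genes and at least 2-fold), and each value in parentheses is the log2 effect at 8 h minus that at 2 h. The naming rule takes many of its antisense RNAs as the most changed in comparisons that enter this interaction, so calls are favoured by that choice. Of all members, 8.52% had the interaction called higher and 49.3% lower, against 12.6% and 19.4% of all tested genes.

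Antisense RNAs with a lower drug effect at 8 h than at 2 h were, from the lowest value up, ubp16-antisense-1 (-7.43), cpc2-antisense-1 (-5.62), lid2-antisense-1 (-4.54), rpl1801-antisense-1 (-4.49), SPBC354.08c-antisense-1 (-4.44), SPBP4G3.03-antisense-1 (-4.02), rad50-antisense-1 (-3.98), arb1-antisense-1 (-3.85), rem1-antisense-1 (-3.50) and rex3-antisense-1 (-3.42). Values between -3 and -2 belonged to SPBPB10D8.02c-antisense-1 (-2.46), SPBC106.12c-antisense-1 (-2.34) and mdl1-antisense-1 (-2.08). The remaining lower values were those of SPCC18B5.02c-antisense-1 (-1.83), rhn1-antisense-1 (-1.57), hip1-antisense-1 (-1.53), SPAC824.04-antisense-1 (-1.53), SPBC1652.02-antisense-1 (-1.46), pep3-antisense-1 (-1.35), clr3-antisense-1 (-1.32), pab2-antisense-1 (-1.16), rpl1002-antisense-1 (-1.14), cid14-antisense-1 (-1.09) and hrp1-antisense-1 (-1.01).

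A higher drug effect at 8 h was found for pfd1-antisense-1 (5.57), cao2-antisense-1 (4.45), wtf11-antisense-1 (2.91), SPCC330.13-antisense-1 (2.61), rpl20-antisense-1 (2.37), SPAC1039.08-antisense-1 (2.24) and rpl2001-antisense-1 (1.88). For wtf11-antisense-1 and rpl2001-antisense-1 the opposite genes have close copies, which can share reads.

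Among the opposite genes, the drug effect was higher at 8 h for rpl1002 (4.605), SPAC1039.08 (3.78), rpl1801 (3.68), rpl2001 (3.62), cpc2 (2.62), ubp16 (1.503), trm44 (1.46), cph1 (1.15) and rpc37 (1.12). It was lower at 8 h for fub2 (-4.87), cao2 (-4.55), SPAC1F8.04c (-4.18), arb1 (-1.50) and SPCC18B5.02c (-1.36). rpl1002, rpl1801 and cpc2 thus had a higher drug effect at 8 h and their antisense RNAs a lower one, and cao2 had the opposite arrangement.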

How the results depend on the processing

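RLE scaling, DESeq2 on the counts, no filter on low counts, a stricter filter (a mean of at least 30 counts per library) and fits of the compared groups only left every count of antisense RNAs and pairs within 1.5 times its reported value, and so did keeping only overlapping pairs for the counts of pairs, an alternative chosen after seeing the data. With scaling by library size alone, 8 antisense RNAs in place of 13 were lower at 2 h against 0 h and 3 pairs in place of 6 were called in opposite directions there. That scaling moved the median of all genes to 0.20 at 4 h and 0.19 at 8 h against 0 h, 0.18 with cycloheximide at 8 h against 0 h, and -0.14 with cycloheximide against no drug at 4 h. It gave wtf11, not called in either case, a log2 fold change of 0.0219 at 4 h against 0 h, where the reported fit gave -0.18. The cause was not tested.

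Leaving out each library in turn moved the counts at 2 h against 0 h to between 3 and 5 for pairs in the same direction and to between 3 and 6 for pairs in opposite directions; antisense RNAs higher there numbered 32 to 42. No other count moved by more than 1.5 times.

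Calls at any fold with the same adjusted p use a looser limit by construction and gave larger counts. Antisense RNAs higher against 0 h were then 190, 322 and 329 at 2, 4 and 8 h without drug and 337, 261 and 212 with cycloheximide, and those lower were 128, 161 and 183 without drug and 180, 235 and 280 with it. With cycloheximide against no drug, 308, 222 and 173 were higher at 2, 4 and 8 h, and 187 were lower at 2 h. Pairs in the same direction against 0 h were 92, 181 and 207 without drug and 219, 252 and 214 with cycloheximide, and pairs in opposite directions were 137, 246 and 241 without drug and 231, 186 and 196 with it. For the drug effect they were 219, 280 and 272 in the same direction and 217, 208 and 217 in opposite directions.

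The labels number replicates 1 to 3 in each group. Deviations from group means correlated at -0.289 to 0.371 over 63 same-numbered pairs of libraries, with a median of 0.042. Over 126 differently numbered pairs they correlated at -0.362 to 0.438, with a median of -0.0189. Correlations above 0.1 were found in 11 of the 63 and 13 of the 126. The ranges overlap, so they cannot settle whether the numbers pair the samples, and the reported fit did not use the numbers. A replicate block moved the counts to between 0.923 and 1.01 times their reported values.

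The 24 antisense RNAs outside the count rule had at most 105 counts over all libraries, and 2 members just inside it had 107 and 131. In a library of mean depth 1 CPM stands for about 27.4 counts, so the calls of RNAs below 1 CPM rest on few reads.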
